A study of Zea mays with 18 samples.

Results

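*NIP2c* (Zm00001eb372380, NOD26-like membrane intrinsic protein 2c) and *JIH5* (Zm00001eb211100, jasmonoyl-L-isoleucine hydrolase 5) are the 2 genes whose promoters the study cloned as those of candidate targets that the transcription factor ZmNF-YA1 could repress. The study based this on a dual-luciferase reporter assay in maize protoplasts and on expression levels, and only the latter are treated here. Both genes were taken by their gene IDs, as 2 of the 36321 genes in the deposited expression table. RNA-seq compared leaves of seedlings of the line labelled *nf-ya1*, which carries a *Mu* transposon insertion in *ZmNF-YA1* (Zm00001eb005690) in the W22 background and was selfed to homozygosity, with leaves of the inbred line W22, its wild type. Each genotype was sampled under normal conditions (0 h), after 1 h of mild heat stress (1 h; 39 °C in the study's terms) and 2 h into recovery (R2h). The 6 groups have 3 libraries each. These times are those of the sample titles, while the protocol text deposited with the samples speaks of 6 h of heat and 2 d of recovery. The heat given to the R2h plants lasted 10 h in the sampling described for qRT-PCR, no length is given for the sequenced leaves, and R2h and 1 h are compared as groups of plants and not as steps of a single time course. The mutant is a single insertion line, and the libraries of a group are described as biological replicates.

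NOD26-like intrinsic proteins are plant membrane channels of the aquaporin family that let water and small uncharged solutes pass. In rice, a member of the NIP2 subgroup is the channel through which roots take up silicic acid. Jasmonoyl-L-isoleucine is the active form of the plant hormone jasmonate, which acts in wounding, defence and stress responses, and jasmonoyl-L-isoleucine hydrolases, described in *Nicotiana attenuata* and *Arabidopsis*, cleave it back to jasmonic acid and isoleucine. ZmNF-YA1 is a subunit of the nuclear factor Y complex, in which the NF-YA subunit recognises CCAAT elements in promoters.

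The values are FPKM, fragments per kilobase of gene scaled to the mapped fragments of the library, which are per length and so allow levels to be compared between genes. Libraries summed to between 804977 and 928910 FPKM and had 24637 to 28580 genes above 0. The mutated gene itself was above 0 in every library, at 15.6 ± 4.8 FPKM in the *nf-ya1*-labelled libraries and 24.2 ± 2.1 in W22 before heat (mean ± SD, n = 3). After 1 h of heat the means for *nf-ya1* and W22 were 35.4 ± 8.1 and 44.1 ± 5.3, and in recovery 10.4 ± 2.2 and 13.0 ± 1.9. The study states that the mutant lacked *ZmNF-YA1* transcripts, and its qRT-PCR gave the mutant far less than W22. Fragments assigned to the gene were nonetheless present in the *nf-ya1*-labelled libraries. FPKM per gene do not tell intact transcripts from interrupted ones. These libraries are called by their label throughout, and each direction given between the genotypes is one between these labels. Of 21 genes annotated as chlorophyll a-b binding proteins of the leaf, 18 were above 0 in all libraries, and 43 genes of the Hsp20 family summed to 143200 to 165000 FPKM in the 1 h libraries and to 1031 to 24540 in all others. Both lists hold only genes from the study's table of differing genes. Differences of their sums between groups are therefore favoured in advance and are no independent check. FPKM are shares of a library, and a lower value in a leaf cannot tell fewer cells that use a gene from less of its RNA per cell.

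Differences are given on the log2(FPKM + 1) scale, on which changes of low genes come out too small, from limma fitted to all libraries with p-values adjusted by Benjamini and Hochberg over 22572 tested genes. Calls needed an adjusted p no larger than 0.01 together with a log2 fold change of 1 or more in either direction. Tested genes had at least 1 FPKM in at least 3 libraries. *NIP2c* had this level in 15 of the 18 libraries, 9 labelled *nf-ya1* and 6 of W22. *JIH5* had it in 5, all labelled *nf-ya1*, so it was tested only because of the genotype in which it was higher. Both genes were picked by the study from genes that differed in these same libraries, and the direction of their difference between the genotypes is therefore not independent evidence. An exact permutation test of 3 libraries against 3 cannot go below 0.1, so the p-values rest on the model across all genes.

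*NIP2c* lay above most tested genes before heat, and was higher in the *nf-ya1*-labelled libraries before and during heat. It fell steeply after 1 h of heat in both genotypes, and in W22 stood at R2h where it stood at 0 h. At 1 h it was under 1 FPKM in W22 only, and in the *nf-ya1*-labelled libraries it still lay above 37.5 to 52.3% of the tested genes. The *nf-ya1*-labelled libraries had 45, 82.96 and 79.75 FPKM before heat (0 h), 4.3, 3.02 and 1.69 FPKM after 1 h of it, and 14.33, 18.72 and 16.15 FPKM in recovery (R2h). The W22 libraries had 24.97, 26.62 and 19.4 FPKM before heat, 0.63, 0.24 and 0.46 FPKM after 1 h, and 18.2, 28.31 and 26.26 FPKM in recovery. From high to low, the group means ran 69.2 ± 21.1 (*nf-ya1* 0 h), 24.3 ± 5.3 (W22 R2h), 23.7 ± 3.8 (W22 0 h), 16.4 ± 2.2 (*nf-ya1* R2h), 3.0 ± 1.3 (*nf-ya1* 1 h) and 0.44 ± 0.20 (W22 1 h). The libraries of W22 R2h overlapped those of W22 0 h and those of *nf-ya1* R2h, and no other pair of groups overlapped. The 1 h libraries of each genotype lay below all libraries of the other times, as they did for most genes. Against 0 h this held for 62.6% of the tested genes in the *nf-ya1*-labelled libraries and 59.5% in W22, and against R2h for 59.8% (*nf-ya1*) and 65.9% (W22).

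**Figure D1:**
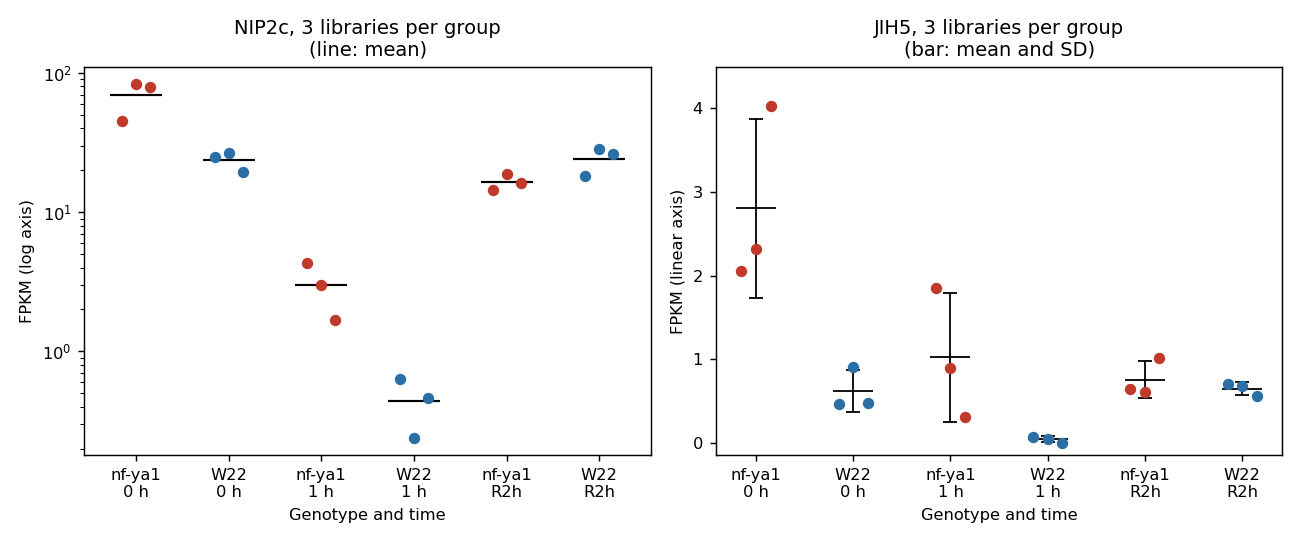
FPKM of *NIP2c* (left, log axis) and *JIH5* (right, linear axis) in each of the 18 libraries, with *nf-ya1* libraries in red and W22 libraries in blue at 0 h, 1 h and R2h; lines mark group means (left), bars the mean and SD of 3 libraries (right). *NIP2c* fell to 1.69 to 4.3 FPKM in *nf-ya1* and 0.24 to 0.63 in W22 at 1 h, and *JIH5* exceeded 1.01 FPKM only in *nf-ya1* libraries at 0 h and 1 h.

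At 0 h, the mean of *NIP2c* in the *nf-ya1*-labelled libraries was 2.93 times that of W22, and single pairs of libraries gave ratios of 1.69 to 4.28. All *nf-ya1*-labelled libraries lay above all W22 libraries, which held in the same direction for 39.9% of the tested genes. The log2 fold change was 1.47 (SE 0.26, 95% interval 0.91 to 2.03, limma adjusted p 0.000337), and *NIP2c* was called higher. At this time 14.9% of all tested genes were called higher and the median gene lay at 0.24, so that *NIP2c* was 1.24 above the median, with 10% of genes above it. The summed chlorophyll a-b binding protein genes, themselves taken from genes listed as differing, were also higher at 0 h, at 66040 to 69480 FPKM in the *nf-ya1*-labelled libraries and 48010 to 53280 in W22, and their part in the result was not tested. Of the *nf-ya1*-labelled libraries, replicate 1 was the lowest, and without it the log2 fold change was 1.75.

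After 1 h of heat, *NIP2c* was lower than before heat in both genotypes but remained higher in the *nf-ya1*-labelled libraries, at 3.0 ± 1.3 FPKM, than in W22, at 0.44 ± 0.20. The ratio of the means was 6.77, with 2.68 to 17.9 in single pairs of libraries, and the libraries again did not overlap, as in this direction for 24.1% of genes. *NIP2c* was called higher, with a log2 fold change of 1.43 (SE 0.26, limma adjusted p 0.000441), where 9.06% of the tested genes were called higher and the median was −0.05. With a pseudocount of 0.1 in place of 1 the log2 fold change was 2.49. Among the 3 *nf-ya1* libraries at 1 h, replicate 1 had the highest and replicate 3 the lowest FPKM of *NIP2c*, of *JIH5*, of *ZmNF-YA1* (43.15, 36.09 and 27.03) and of the summed chlorophyll a-b binding protein genes (65925, 42222 and 25829). Other genes with cloned promoters ran the other way. *ASN3* (13.5, 17.09 and 19.44), *bZIP100* (9.07, 13.66 and 18.76) and *GRF1* (57.36, 68.88 and 89.64) rose from replicate 1 to replicate 3. *HUP26* (1857.25, 1821.09 and 2165.17) was also highest in replicate 3. The part of these differences between libraries in the results was not tested.

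At R2h the order of the genotypes was the other way round. *NIP2c* averaged 16.4 ± 2.2 FPKM in the *nf-ya1*-labelled libraries and 24.3 ± 5.3 in W22, but 1 W22 library (18.2) lay within the range of the other genotype. The log2 fold change of −0.52 (SE 0.26, 95% interval −1.08 to 0.04, limma adjusted p 0.153) did not pass the threshold, which 8.24% of genes passed in either direction.

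*NIP2c* was among the genes that fell most with heat. In the *nf-ya1*-labelled libraries it averaged 3.0 FPKM at 1 h and 69.2 at 0 h, 23.1-fold lower, and in W22 0.44 at 1 h and 23.7 at 0 h, 53.4-fold lower. The log2 fold changes were −4.14 (SE 0.26, limma adjusted p 2.73e-09) in the *nf-ya1*-labelled libraries and −4.09 (SE 0.26, adjusted p 8.88e-09) in W22. Genes called lower after heat made up 43.7% of the tested genes in the *nf-ya1*-labelled libraries and 20.7% in W22 (11% and 6.77% with median-ratio scaling), and the medians of all genes were −0.92 (*nf-ya1*) and −0.51 (W22). Only 0.346% of the genes in the *nf-ya1*-labelled libraries and 0.106% in W22 had a smaller (more negative) log2 fold change. On this scale a fall cannot exceed log2(FPKM + 1) at 0 h, so genes of low expression could not rank below *NIP2c*. The median tested gene was at 5.69 to 6.23 FPKM in W22 at 0 h. The falls of *NIP2c* remained called when libraries were rescaled, at −3.14 (*nf-ya1*) and −3.74 (W22) with median-ratio scaling. The summed chlorophyll a-b binding protein genes moved the same way, at 25830 to 65930 FPKM at 1 h and 66040 to 69480 at 0 h in the *nf-ya1*-labelled libraries and 12860 to 21260 at 1 h and 48010 to 53280 at 0 h in W22, and their part in the results was not tested.

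The sign of the difference between the genotypes' falls depended on the scale. On log2(FPKM + 1) the response in *nf-ya1* minus that in W22 was −0.04 (SE 0.37, 95% interval −0.83 to 0.74, limma adjusted p 0.937). It was 0.98 with a pseudocount of 0.1 (adjusted p 0.121), 0.60 with median-ratio scaling (adjusted p 0.222) and 0.13 with quantile normalization (adjusted p 0.831). None of these passed the threshold, which 17.1% of genes passed in either direction, and the interval leaves room for a difference in either direction.

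In recovery the genotypes differed. The *nf-ya1*-labelled libraries at R2h had 23.7% of their mean at 0 h, with −1.97 on the log2 scale (SE 0.26, limma adjusted p 2.42e-05), whereas the W22 libraries had 103% of theirs, with a log2 fold change of 0.02 (95% interval −0.53 to 0.58, adjusted p 0.994). *NIP2c* was thus called lower at R2h than at 0 h in the *nf-ya1*-labelled libraries, as were 11.6% of the tested genes, and its libraries did not overlap between these times, as for 29.8%. In W22 1.87% of genes were called lower. The difference between the genotypes' changes was itself called, at −1.99 (SE 0.37, 95% interval −2.78 to −1.20, limma adjusted p 0.00125). It was lower than in 96.4% of genes, against a median of −0.28 and 9.67% of genes called lower (4.69% with median-ratio scaling). This difference contains the genotype difference at 0 h, and the gene was picked from genes that differed in these libraries.

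From 1 h to R2h, *NIP2c* was called higher in both genotypes, by 2.17 on the log2 scale in the *nf-ya1*-labelled libraries (SE 0.26, limma adjusted p 2.36e-06) and by 4.11 in W22 (SE 0.26, adjusted p 5.43e-09). Genes called higher in this comparison made up 36.6% of the tested genes in the *nf-ya1*-labelled libraries and 30.7% in W22, but 10.4% (*nf-ya1*) and 7.91% (W22) with median-ratio scaling. In W22 only 0.164% of the genes had a larger log2 fold change than *NIP2c*, in the *nf-ya1*-labelled libraries 5.88%. A rise on this scale is limited by the level at R2h, so genes low at R2h could not rank above it. The mean of *NIP2c* at R2h was 5.46 times that at 1 h in the *nf-ya1*-labelled libraries and 54.7 times in W22. The gain was smaller in the *nf-ya1*-labelled libraries by 1.95 on the log2 scale (difference −1.95, SE 0.37, 95% interval −2.74 to −1.16, limma adjusted p 0.00192), where 3.89% of genes were called lower. With median-ratio scaling the gain in the *nf-ya1*-labelled libraries was 1.31, with quantile normalization 1.36, and with a pseudocount of 0.1 the difference between the genotypes was −3.03. Both differences in recovery remained called under every scaling, pseudocount and filter tried and with any of the 18 libraries left out.

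**Figure D2:**
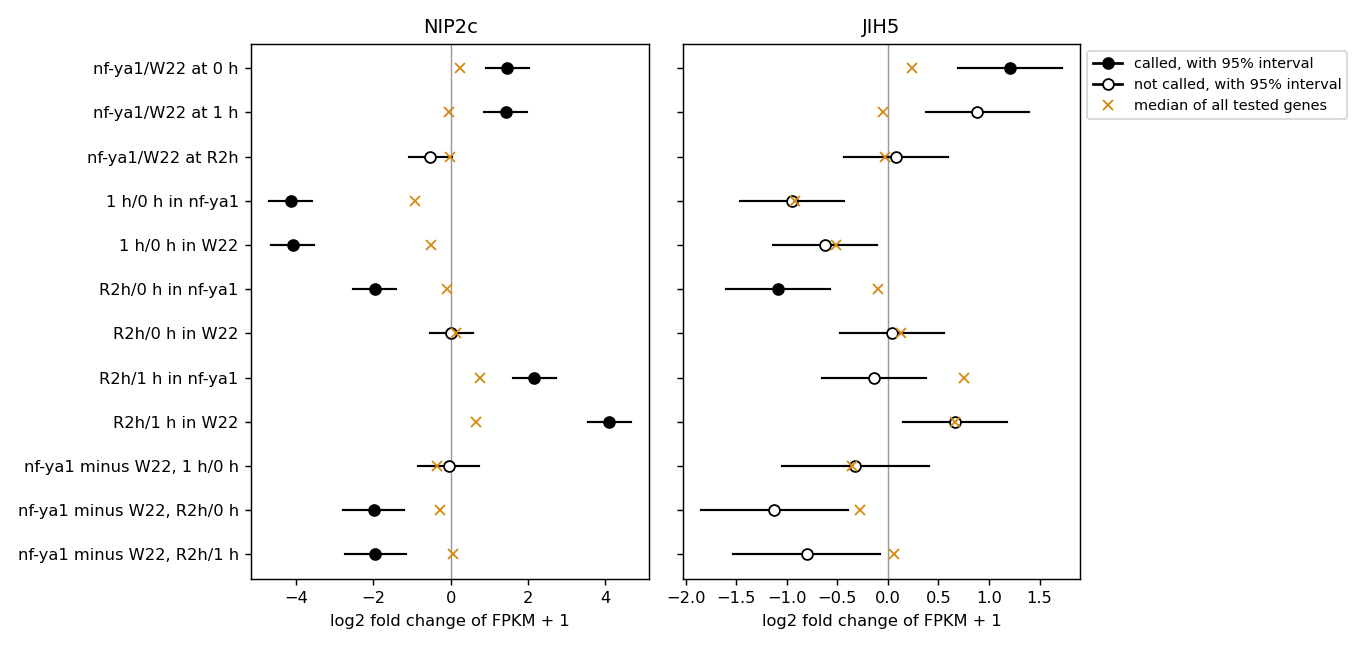
Log2 fold changes of *NIP2c* (left) and *JIH5* (right, a narrower axis) on the log2(FPKM + 1) scale in 12 comparisons, as points with 95% intervals; filled points were called, and crosses mark the median of the 22572 tested genes. *NIP2c* lies far below the cross at 1 h/0 h in both genotypes (−4.14 and −4.09), and *JIH5* is drawn at −0.95 and −0.63, values that become −1.58 and −2.34 with a pseudocount of 0.1.

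*JIH5* was a gene of low expression, with a group mean above 1.02 FPKM only in the *nf-ya1*-labelled libraries at 0 h, and its values there were the highest of the series. The *nf-ya1*-labelled libraries had 2.06, 2.32 and 4.03 FPKM before heat, 1.85, 0.9 and 0.31 FPKM after 1 h, and 0.64, 0.61 and 1.01 FPKM in recovery. The W22 libraries had 0.46, 0.91 and 0.48 FPKM before heat, 0.07, 0.05 and 0 FPKM after 1 h, and 0.7, 0.68 and 0.56 FPKM in recovery. The group means ran from 2.80 ± 1.07 (*nf-ya1* 0 h) through 1.02 ± 0.78 (*nf-ya1* 1 h), 0.75 ± 0.22 (*nf-ya1* R2h), 0.65 ± 0.08 (W22 R2h) and 0.62 ± 0.25 (W22 0 h) to 0.04 ± 0.04 (W22 1 h). The middle 4 groups overlapped one another, and only the highest and the lowest group stood clear of all others. The number of fragments behind such low values is not known from FPKM.

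At 0 h *JIH5* averaged 4.55 times as much in the *nf-ya1*-labelled libraries as in W22 (2.26 to 8.76 in single pairs of libraries). The libraries did not overlap, as in this direction for 39.9% of the tested genes. It was called higher, with a log2 fold change of 1.21 (SE 0.24, 95% interval 0.70 to 1.72, limma adjusted p 0.000838), against the 14.9% of genes called higher at this time. The call rested in part on the scale and on replicate 3 of the *nf-ya1* libraries. The log2 fold change was 0.95 with median-ratio scaling, 0.67 with quantile normalization (adjusted p 0.0314) and 0.99 without that library, in each case under the threshold of 1, and a fit of only the libraries at 0 h gave an adjusted p of 0.0123.

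At 1 h *JIH5* was at 1.85, 0.9 and 0.31 FPKM in the *nf-ya1*-labelled libraries, all above the 0.07, 0.05 and 0 of W22. Such a lack of overlap in this direction held for 24.1% of the tested genes. The log2 fold change was 0.89 (SE 0.24, 95% interval 0.37 to 1.40, limma adjusted p 0.00738), which passed the p threshold but not that for the fold change. It was 2.76 with a pseudocount of 0.1, 1.21 with median-ratio scaling, 1.11 with quantile normalization and 1.16 without replicate 3 of the *nf-ya1* libraries, and was called in each of these. Under these settings 13.5%, 13.1%, 9.76% and 11% of the tested genes were called higher, in this order. No ratio is given, since 1 of the W22 libraries lists the gene at 0. At R2h the libraries overlapped, with a log2 fold change of 0.08 (95% interval −0.43 to 0.60, limma adjusted p 0.83).

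The size of the heat response of *JIH5* depended on the pseudocount, as its values after heat in W22 were near 0. The log2 fold change from 0 h to 1 h was −0.95 (SE 0.24, limma adjusted p 0.00211) in the *nf-ya1*-labelled libraries, with a median of −0.92 over all genes, and −0.63 (SE 0.24, adjusted p 0.0348) in W22, with a median of −0.51. Neither was called, although the 1 h libraries lay below the 0 h libraries in both genotypes, as they did for 62.6% (*nf-ya1*) and 59.5% (W22) of the tested genes. On median-ratio scaled values the *nf-ya1* libraries at 1 h (2.83, 1.47 and 0.56) overlapped those at 0 h (1.59, 1.75 and 2.75), and the log2 fold change was −0.29. With quantile normalization it was −0.14. With a pseudocount of 0.1 both responses were called, at −1.58 in the *nf-ya1*-labelled libraries, where the median of all genes was then −1.19, and −2.34 in W22, where it was −0.72. At that setting 50.5% (*nf-ya1*) and 30.1% (W22) of the tested genes were called lower. The difference between the genotypes' responses was −0.32 (95% interval −1.05 to 0.40, limma adjusted p 0.478), and turned positive with a pseudocount of 0.1 (0.75), median-ratio scaling (0.26) and quantile normalization (0.44).

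At R2h *JIH5* was at 26.9% of its mean at 0 h in the *nf-ya1*-labelled libraries and at 105% in W22. It was called lower in the *nf-ya1*-labelled libraries with −1.09 on the log2 scale (SE 0.24, limma adjusted p 0.00187) and not in W22 (0.04, 95% interval −0.48 to 0.55, adjusted p 0.967). Of all tested genes, 11.6% were called lower in the *nf-ya1*-labelled libraries and 1.87% in W22. In the *nf-ya1*-labelled libraries 12.2% of genes had a smaller log2 fold change than *JIH5*. The call in the *nf-ya1*-labelled libraries was lost without replicate 3 at 0 h (−0.87), after quantile normalization (−0.74) or median-ratio scaling (−0.91), and when only these groups were fitted (limma adjusted p 0.0183). The difference between the genotypes' changes was −1.13 (SE 0.34, 95% interval −1.85 to −0.40) and missed the threshold (limma adjusted p 0.0214). From 1 h to R2h the log2 fold change was −0.14 (95% interval −0.65 to 0.37, limma adjusted p 0.615) in the *nf-ya1*-labelled libraries, whose values at both times overlapped. In W22 it was 0.66 (SE 0.24, 95% interval 0.15 to 1.18, adjusted p 0.0237), with a median of 0.66 over all genes and all R2h libraries above all 1 h libraries as in 65.9% of the tested genes. With a pseudocount of 0.1 it was 2.45 and called (limma adjusted p 0.000309), with a median of 0.91 and 39.6% of the tested genes called higher. These changes differed by −0.80 between the genotypes (95% interval −1.53 to −0.08, limma adjusted p 0.106), and by −2.60 with a pseudocount of 0.1 (adjusted p 0.0123), neither of them called.

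The position of each gene within its own library needs no scaling between libraries. At 0 h, 88.3 to 94% of the tested genes were lower than *NIP2c* in the *nf-ya1*-labelled libraries and 77 to 81.8% in W22. At 1 h these shares were 37.5 to 52.3% (*nf-ya1*) and 12.4 to 23.4% (W22), and at R2h 67.6 to 73.9% (*nf-ya1*) and 74.1 to 81% (W22). By position *NIP2c* was higher in the *nf-ya1*-labelled libraries at 0 h and 1 h, while at R2h the 2 ranges adjoined, at 73.9% and 74.1%. *JIH5* lay above 21 to 29.9% of genes in the *nf-ya1*-labelled libraries and above 10.2 to 16.7% in W22 at 0 h. At 1 h the shares were 13.2 to 33.5% (*nf-ya1*) and 0 to 8.2% (W22), and at R2h 9.93 to 13.5% (*nf-ya1*) and 11 to 13.2% (W22). Within the *nf-ya1*-labelled libraries, the position of *JIH5* at 1 h thus spanned that at 0 h.

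**Figure D3:**
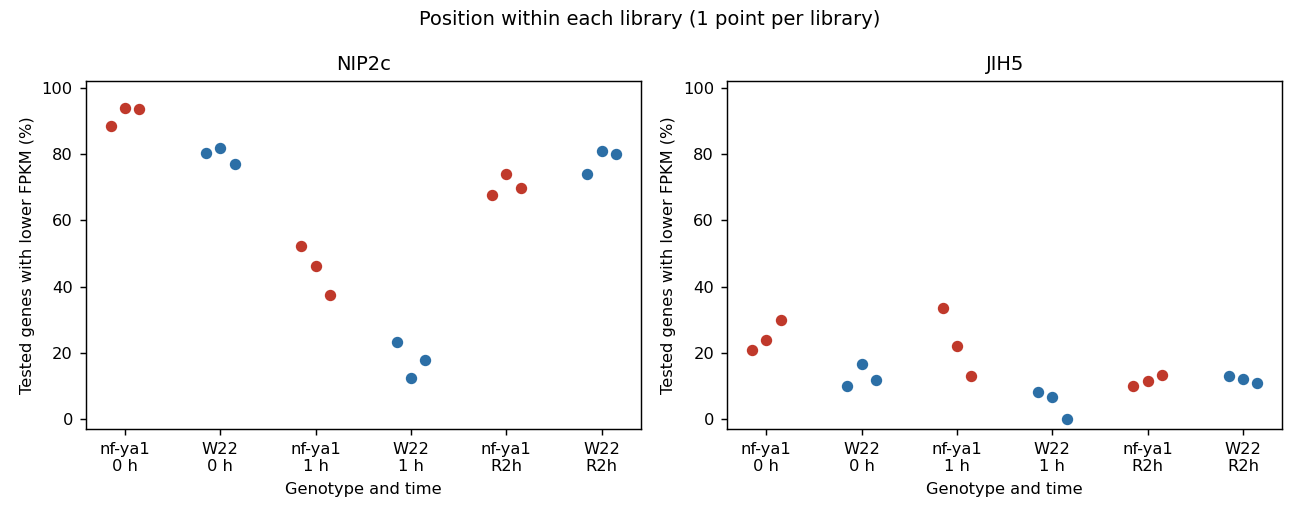
Share of the 22572 tested genes with a lower FPKM than *NIP2c* (left) or *JIH5* (right) in the same library, in percent, with 1 point per library (*nf-ya1* red, W22 blue). *NIP2c* moves from 88.3 to 94% at 0 h to 37.5 to 52.3% at 1 h in *nf-ya1*, and *JIH5* at 1 h in *nf-ya1* (13.2 to 33.5%) spans its range at 0 h (21 to 29.9%).

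Set beside *ZmNF-YA1*, the means of *NIP2c* were ordered inversely across genotypes at 0 h and 1 h but not at R2h. Those of *JIH5* were ordered inversely at all 3 times, but at R2h (0.75 in *nf-ya1* and 0.65 in W22) its libraries overlapped. *ZmNF-YA1* averaged less in the *nf-ya1*-labelled libraries than in W22 at all 3 times, with log2 fold changes of −0.64 (SE 0.20) at 0 h, −0.33 (SE 0.20) at 1 h and −0.30 (SE 0.20) at R2h, of which none was called (limma adjusted p 0.0182, 0.206 and 0.297). The libraries fall into 3 separate times of 3 libraries a genotype, so no correlation across libraries with *ZmNF-YA1* is given.

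The other 4 genes whose promoters the study cloned and named as activated targets were *ASN3* (asparagine synthetase), *HUP26* (a hypoxia response protein), *bZIP100* (a bZIP transcription factor) and *GRF1* (general regulatory factor 1). In the *nf-ya1*-labelled libraries against W22 at 0 h, *ASN3* (log2 fold change −2.99, limma adjusted p 0.000274) and *HUP26* (−2.75, adjusted p 5.14e-05) were called lower, where *NIP2c* and *JIH5* were called higher, and *bZIP100* (−0.80) and *GRF1* (−0.49) were not called. Of all tested genes, 5% were called lower at 0 h and 7.33% at 1 h. At 1 h, *ASN3* (−5.28) and *bZIP100* (−1.28) were called lower. At R2h none of the 6 genes was called, with log2 fold changes of −0.74 to 0.23, where 8.24% of all genes were called.

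**Figure D4:**
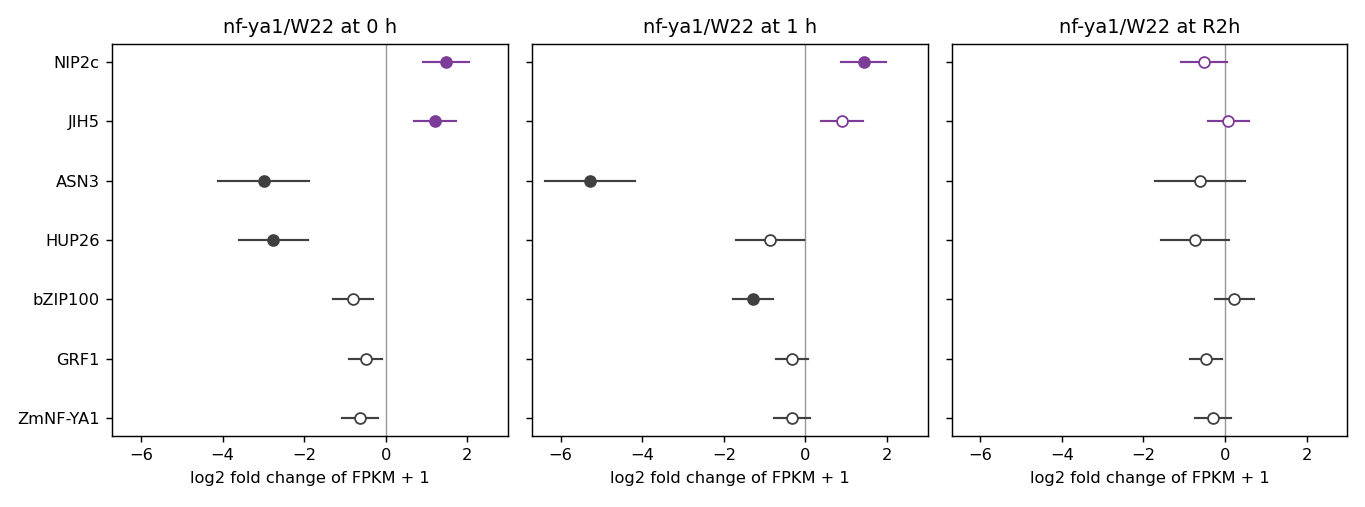
Log2 fold changes of *nf-ya1* over W22 on the log2(FPKM + 1) scale at 0 h, 1 h and R2h for the 6 genes with cloned promoters and *ZmNF-YA1*, with 95% intervals; filled points were called, and purple marks *NIP2c* and *JIH5*. *NIP2c* (1.47) and *JIH5* (1.21) lie above 0 at 0 h, and no gene is filled at R2h.

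Over the 18 libraries, the profile of *NIP2c* on log2(FPKM + 1) was most like those of Zm00001eb275250 (Pearson r 0.98), Zm00001eb181990 (0.98) and Zm00001eb012790 (0.97), and that of *JIH5* most like those of Zm00001eb358890 (0.97), Zm00001eb154860 (0.97) and Zm00001eb112000 (0.97). These values are descriptions, since the points share groups and libraries. Zm00001eb275250, annotated by the study as AdipoR/Haemolysin-III-related, was at 66.25, 77.41 and 108.35 FPKM in the *nf-ya1*-labelled libraries and 40.48, 43.73 and 34.92 in W22 at 0 h, and at 1 h it was at 16.7, 10.05 and 7.28 in the *nf-ya1*-labelled libraries and 4.55, 4.43 and 4.36 in W22. It was called higher in *nf-ya1* at both times. Zm00001eb181990 (log2 fold changes 0.46 at 0 h and 0.22 at 1 h) and Zm00001eb012790 (0.36 and 0.30) were called at neither time. Zm00001eb112000 was at 4.62, 5.3 and 10.56 in the *nf-ya1*-labelled libraries and 1.23, 1.02 and 0.34 in W22 at 0 h, and like *JIH5* had its 1 h values in W22 near 0 (0.13, 0.17 and 0). *NIP2c* and *JIH5* were less like each other (r 0.72), and *JIH5* ranked 7738th among the 22571 other genes by its likeness to *NIP2c*.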

How the data were processed

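RNA was extracted from leaves and sequenced on the BGISEQ-500 platform. BGI aligned clean reads to B73 V5 of the maize genome; the aligner and counter are not given in the sources used here. The authors deposited 1 table of FPKM, rounded to 2 decimals, with 1 column per library, and groups follow the sample titles. Reads and counting error per gene were not recovered from these values. Of low values, 12.9% lay within 0.05 of a whole multiple of the gene's lowest value. Values of different libraries are scaled to different totals and need not be whole multiples, so this share cannot decide whether reads could be recovered. No 2 libraries shared more than 3.34% of their values.

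In R 4.3.3, limma 3.58.1 (1 mean per group, intensity trend) was fitted to log2(FPKM + 1) of all 18 libraries, with Benjamini-Hochberg adjustment over the genes of a comparison and the study's thresholds, an adjusted p of 0.01 and an absolute log2 fold change of 1. Intervals are 95% intervals of the moderated fit. Figures were drawn with Matplotlib 3.10.9. Alternatives were a pseudocount of 0.1, no filter, median-ratio scaling, quantile normalization, only the groups compared, a replicate block, and each library left out.

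Both genes and the tests were chosen with earlier results of these data known. The genes named are these 2, *ZmNF-YA1*, the 4 other cloned-promoter genes and the 3 most similar profiles of each. Lists of aquaporin and jasmonate genes and promoter motifs were planned but not analysed here, since the gene descriptions used here, a shortened copy of the study's table of differing genes, name no aquaporin or jasmonate gene, and no sequence was used. Leaf and Hsp20 genes come from that copy.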

Additional observations from a re-analysis of the deposited data

Results flagged for a closer look

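The recovery of *NIP2c* differed between the genotypes by the test of the difference itself. The log2 fold change from 0 h to R2h in the *nf-ya1*-labelled libraries minus that in W22 was −1.99 (SE 0.37, limma adjusted p 0.00125), and that from 1 h to R2h was −1.95 (SE 0.37, adjusted p 0.00192). All 3 *nf-ya1* libraries at R2h (14.33 to 18.72 FPKM) lay below all 3 at 0 h (45 to 82.96), while W22 libraries overlapped between R2h (18.2 to 28.31) and 0 h (19.4 to 26.62). Both differences use the same R2h libraries and are not separate observations. Each equals the genotype difference at R2h (−0.52, not called) minus that at 0 h (1.47) or at 1 h (1.43). The study picked *NIP2c* from genes that differed in these same libraries. The 2 differences in recovery thus contain the differences that favoured its choice and are not independent evidence.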

How the results depend on the processing

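Nothing here could be checked against reads per gene, and the values of *JIH5*, mostly under 1 FPKM, depend on the pseudocount. *NIP2c* kept each call under all 6 alternatives and all 18 left-out libraries; 67 of its 72 values under the alternatives kept direction and call, and 54 of 72 did for *JIH5*. The cause of each change was not tested. With a pseudocount of 0.1, *JIH5* was called at 1 h in *nf-ya1*/W22 (2.76) and for 1 h/0 h in the *nf-ya1*-labelled libraries (−1.58; adjusted p 0.00396 to 0.627 over the alternatives) and W22 (−2.34) and R2h/1 h in W22 (2.45), and the difference of heat responses turned to 0.75 for *JIH5* and 0.98 for *NIP2c*. The shares of tested genes called in the same direction as *JIH5* were 13.5%, 50.5%, 30.1% and 39.6% for these calls, in this order. Median-ratio scaling ended the *JIH5* calls at 0 h in *nf-ya1*/W22 (0.95) and for R2h/0 h in the *nf-ya1*-labelled libraries (−0.91), made a call at 1 h (1.21), and turned the uncalled differences of heat responses to 0.26 (*JIH5*) and 0.60 (*NIP2c*) and the uncalled R2h/0 h in W22 to −0.048 and −0.19. Quantile normalization gave 0.67, −0.74, 1.11, 0.44, 0.13, −0.047 and −0.10 for the same results in this order, and −0.026 for *JIH5* in *nf-ya1*/W22 at R2h. The fit of only the groups compared kept the *JIH5* values of 1.21 (*nf-ya1*/W22 at 0 h) and −1.09 (R2h/0 h in the *nf-ya1*-labelled libraries) but not their calls, with adjusted p of 0.0123 and 0.0183.

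With each library left out, *JIH5* ranged over 0.99 to 1.35, 0.60 to 1.16 and −0.018 to 0.14 between the genotypes at 0 h, 1 h and R2h, −1.23 to −0.67, −1.23 to −0.87 and −0.42 to 0.14 for 1 h/0 h, R2h/0 h and R2h/1 h in the *nf-ya1*-labelled libraries, −0.031 to 0.16 for R2h/0 h in W22, and −0.61 to −0.048, −1.27 to −0.91 and −1.08 to −0.52 for the differences in 1 h/0 h, R2h/0 h and R2h/1 h. For *NIP2c* the uncalled values that turned sign ranged over −0.11 to 0.21 (R2h/0 h in W22) and −0.32 to 0.21 (difference of heat responses).

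No strong shared effect of the replicate number was seen: deviations of same-numbered libraries from their group means correlated at −0.17 to 0.20 over 27 pairs, and in no comparison were all above 0.1. These correlations cannot tell whether same-numbered libraries were grown or collected together. The replicate block changed no call of either gene, with 1.47 for *NIP2c* and 1.21 for *JIH5* in *nf-ya1*/W22 at 0 h, and moved no count of called genes by over 1.5 times. Counts over all genes did depend on scaling: median-ratio scaling called 2484 genes lower and 3499 higher after heat in the *nf-ya1*-labelled libraries (9865 and 1719 as deposited) and 1528 and 2486 in W22 (4674 and 1307). For R2h/1 h it called 3619 lower and 2342 higher in the *nf-ya1*-labelled libraries (1852 and 8272 as deposited) and 2827 and 1785 in W22 (1293 and 6923).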
